A study of Mus musculus with 15 samples.

Results

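Adrenergic receptors are the cell-surface receptors for noradrenaline and adrenaline, and the kidney, which is densely supplied by sympathetic nerves, uses several of them. The alpha-1 receptors couple to Gq proteins and phospholipase C and are known for constricting renal vessels and for promoting sodium reabsorption, the alpha-2 receptors couple to Gi proteins and restrain adenylyl cyclase, and the beta-1 receptor couples to Gs and drives renin release from juxtaglomerular cells. The 6 receptor genes Adra1a, Adra1b, Adra1d, Adra2a, Adra2b and Adrb1 were examined in kidney RNA, out of 33058 named genes in the transcript table. The genes were chosen by name, and the value of a gene was the sum of the FPKM values (fragments per kilobase of transcript, scaled to the mapped fragments of each library, a level corrected for length and depth) of its annotated and spliced assembled transcripts.

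The kidneys came from 15 male C57BL/6 mice, 5 at each of 3 months (replicates 5 to 9), 12 months (replicates 17 to 21) and 24 months (replicates 31 to 35), all kept on standard chow, and the labels give no treatment. The question of the design was how kidney RNA differs with age. The aligned bases behind the values were 5.03 to 6.13 gigabases a mouse at 3 months, 5.84 to 8.03 at 12 months and 6.07 to 7.33 at 24 months, as computed from the deposited coverage and FPKM values. The sum of 8 proximal tubule markers was 1577 to 2244 FPKM over all the mice, with every marker of that list above 0 in some mice. The p-values of the comparisons of ages measure the spread between single mice of an age. Those of the correlations and of the order of levels pool mice of different ages, except where each age was centred.

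By gene sum, Adra1a, the alpha-1A receptor, was the most highly expressed of the 6 genes. It was lower in the older mice, whereas Adra1b and Adrb1 were higher. Adra1a had a mean level of 11.5 ± 3.11 FPKM at 3 months (SD, n = 5), 8.23 ± 1.33 at 12 months and 6.43 ± 1.39 at 24 months. Adra1b, the alpha-1B receptor, had 0.232 ± 0.0712, 0.396 ± 0.0962 and 0.463 ± 0.122 FPKM at the same ages. Adrb1, the beta-1 receptor, was listed at 0 in 4 of 5 mice at 3 months and was between 1.03 and 2.43 FPKM in all 5 mice at 24 months. In whole kidney RNA, fewer cells of a type and less RNA per cell cannot be told apart.

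None of the 6 genes passed the test across all genes in any comparison of ages (limma on log2(FPKM + 1), Benjamini-Hochberg adjusted p under 0.05). The background share of genes that passed was 1.22% of 31755 between 24 and 3 months, 0.25% between 12 and 3 months, 0.0031% between 24 and 12 months and 1.47% over the 3 ages together. At an unadjusted limma p under 0.05, 4 of the 6 genes differed between 24 and 3 months (Adra1a, Adra1b, Adra2b and Adrb1), against a background of 14.9% of genes. Of these, 3 were higher at 24 months (background 11.4%) and 1 was lower (background 3.47%). Between 12 and 3 months 2 of the 6 did so (Adra1b and Adra2b, background 14.3%), both higher at 12 months (background 11.4%), and between 24 and 12 months 0 of the 6 did so (background 6.43%). Adra2b was listed at 0 in all 5 mice at 3 months, and its exact permutation p was 0.167 in both comparisons with that age. Adrb1 was listed at 0 in 4 of 5 mice at 3 months (exact permutation p = 0.0159 between 24 and 3 months). The median difference of the 6 genes between 24 and 3 months was 0.20 on the log2 scale, and that of all genes tested was 0.02. Over the 3 ages together, the unadjusted limma p was 0.00607 for Adra1a, 0.00665 for Adra1b and 0.0146 for Adrb1, with adjusted values of 0.14, 0.144 and 0.201 and a background of 14.7% of genes under 0.05.

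**Figure D1:**
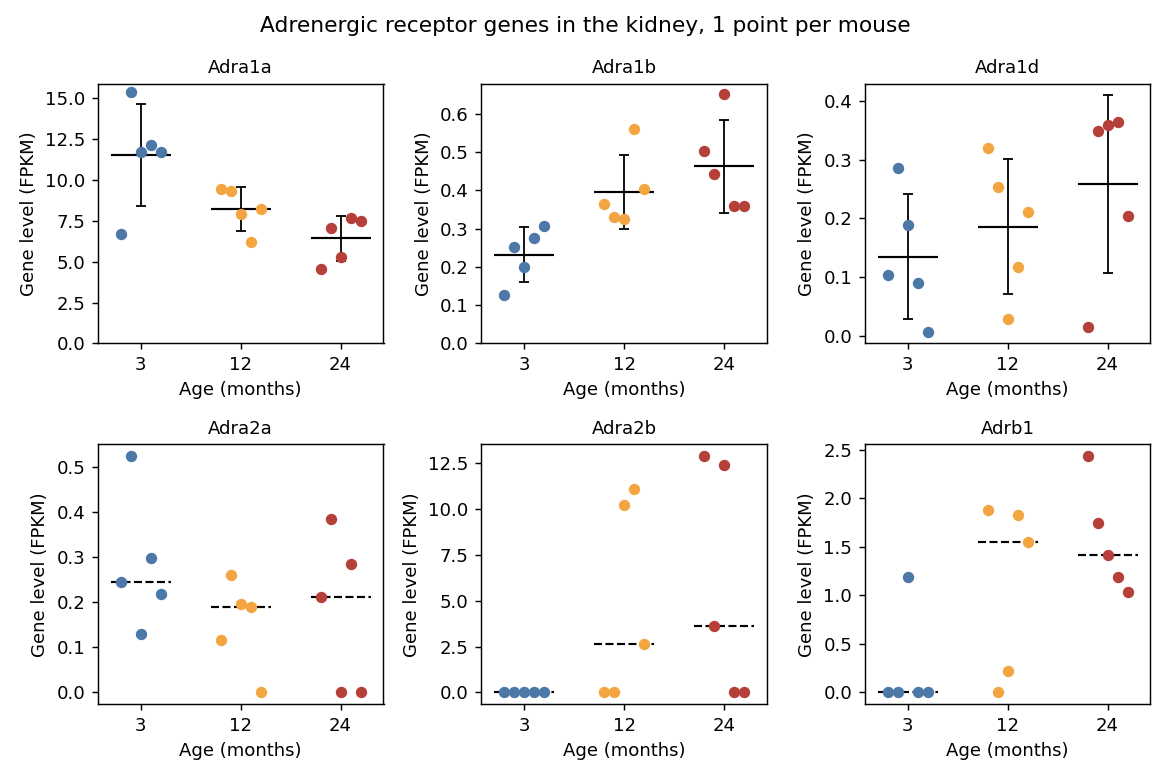
Gene level in FPKM (vertical axis) of the 6 receptor genes at 3, 12 and 24 months (horizontal axis), with 1 point per mouse. Solid lines and bars give the mean and SD for the 3 genes above 0 in every mouse, and dashed lines give the median for the 3 genes listed at 0 in some mice. The 5 Adra1b values at 3 months lie below all those at 12 and 24 months, and Adra2b is at 0 in all 5 mice at 3 months.

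By their mean over the 15 mice, the genes stood in the order Adra1a (8.73 ± 2.93 FPKM), Adra2b, Adrb1, Adra1b (0.364 ± 0.136), Adra2a and Adra1d (0.193 ± 0.127). The level of Adra1a exceeded those of 85% of the 33058 genes, whereas Adra1b exceeded 49% and Adra1d 42.6%. The levels of Adra2b and Adrb1 did not differ beyond their spread (exact sign-flip test over the 15 mice, two-sided, adjusted p = 0.12 over 5 pairs of neighbours), nor did those of Adra2a and Adra1d (exact adjusted p = 0.82). The other 3 pairs of neighbours each had an exact adjusted p of 0.0339, with Adra1a above Adra2b in 11 of 15 mice, Adrb1 above Adra1b in 9 and Adra1b above Adra2a in 12. The order pooled the ages and was not the same in each. At 3 months the order by mean was Adra1a, Adra2a, Adrb1, Adra1b, Adra1d and Adra2b, and Adra1b was above Adra2a in 2 of 5 mice, whereas it was above Adra2a in 5 of 5 mice at 12 months and at 24 months. At 12 and 24 months the first 4 genes by mean stood as over all mice, and Adra1d was above Adra2a. The first place of Adra1a at these ages rests on a sum that also counts transcripts other than its coding isoforms. The coding isoforms alone had means of 3.45 FPKM at 12 months and 3.91 at 24 months. The means of Adra2b were 4.79 and 5.77 FPKM. The place of Adra2b rests on the 6 mice in which it was above 0: by the median it was last, at 0 FPKM, whereas Adra1a had a median of 7.92, Adrb1 1.19, Adra1b 0.359, Adra2a 0.211 and Adra1d 0.205 FPKM.

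Among the alpha-1 receptors, Adra1a was followed by mouse and by isoform. It lies on chromosome 14 (GRCm38, 66635251 to 66733462, plus strand). The gene sums of Adra1a were 6.67, 15.4, 11.7, 12.1 and 11.7 FPKM in replicates 5 to 9 at 3 months. They were 9.48, 9.34, 7.92, 6.19 and 8.24 FPKM in replicates 17 to 21 at 12 months. They were 4.58, 7.06, 5.32, 7.71 and 7.48 FPKM in replicates 31 to 35 at 24 months. Replicates 6 to 9 at 3 months were above all 10 older mice, while replicate 5 lay inside the range of both older groups. The mean at 24 months was 0.558 times that at 3 months, with a difference of -0.73 ± 0.21 in log2(FPKM + 1) (SE, limma adjusted p = 0.126), and all 5 mice at 24 months were below the 3-month median. The exact permutation test of the means gave p = 0.0317 (two-sided, 5 against 5, smallest possible p 0.00794). Between 12 and 3 months the difference was -0.41 ± 0.19 (adjusted p = 0.368), and between 24 and 12 months it was -0.32 ± 0.15 (adjusted p = 0.789). Without replicate 5, Adra1a passed the test over the 3 ages (limma adjusted p = 0.0428).

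The 7 transcripts summed for Adra1a comprised 4 coding isoforms, the retained intron ENSMUST00000160647 and 2 transcripts assembled from the reads, MSTRG.11542.3 and MSTRG.11542.7. A retained intron transcript keeps intron sequence in the finished RNA and has no annotated protein. In ENSMUST00000160647 the second exon (66636981 to 66640333, 3353 bases) runs on past the splice donor that the coding isoforms use after base 66638460, and the transcript ends in the following intron. In the coding isoforms that exon is joined to exon 3, which begins at 66727446. The levels of the forms are the deposited estimates per transcript, and no reads were counted over their junctions. The splice, read-through and back-splice sequences were taken from the annotation (GENCODE M21, GRCm38, plus strand). Whether the read-through occurs in ENSMUST00000160647 alone was not tested. In each sequence, lower case gives the last 15 bases before the junction and capitals the 15 bases after it.
Coding splice junction, exon 2 to exon 3: tcgtgatgcccattgGGTCCTTCTTCCCGA
Retained intron read-through, chr14:66638446-66638475: tcgtgatgcccattgGTGAGTGTTCTCAAC
Back-splice junction of the exon 3 circle: aagggatgacactagGGTCCTTCTTCCCGA

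By FPKM, the retained intron isoform carried a large and uneven share of the Adra1a gene sum. Of the bases aligned to all listed Adra1a transcripts, intronic MSTRG.11543.1 included, it held a median of 10.1% over the 15 mice (0 to 19.1%). Its level was 0.677, 6.34, 3.07, 4.74 and 4.5 FPKM in replicates 5 to 9 at 3 months. At 12 months it was 2.75, 2.27, 3, 0 and 3.79 FPKM in replicates 17 to 21, and at 24 months it was 0.719, 2.64, 0.0312, 0 and 2.36 FPKM in replicates 31 to 35. All 5 mice at 24 months, and all 5 at 12 months, were below the 3-month median of 4.5 FPKM, but replicate 5 lay inside the range of the 24-month mice. The difference between 24 and 3 months was -1.24 ± 0.50 in log2(FPKM + 1), with a limma p of 0.0332, an adjusted p of 0.589 over 124719 transcripts and an exact permutation p of 0.0397. Its share of the gene sum was 31% ± 13.1 at 3 months (SD, n = 5), 27.4% ± 17.5 at 12 months and 17% ± 17.2 at 24 months. The difference in share between 24 and 3 months, -14 percentage points, was within the spread between mice (exact permutation test, p = 0.183), as were those between 12 and 3 months (p = 0.706) and between 24 and 12 months (p = 0.373) by the same exact test.

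The 4 coding isoforms together, the form from which the receptor protein is made, were summed after the values had been seen. They came to 3.93, 5.61, 5.76, 3.98 and 5.51 FPKM at 3 months, to 3.67, 4.17, 3.4, 4.16 and 1.83 FPKM at 12 months and to 3.75, 2.75, 4.38, 4.28 and 4.38 FPKM at 24 months. The means were 4.96 ± 0.92, 3.45 ± 0.959 and 3.91 ± 0.698 FPKM, and the ages overlapped. The exact permutation p of the difference was 0.103 between 24 and 3 months, 0.0476 between 12 and 3 months and 0.421 between 24 and 12 months. The other 3 transcripts of the sum had means of 6.57 ± 2.63 FPKM at 3 months and 2.52 ± 1.56 at 24 months (exact permutation p = 0.0317). Thus of the difference of -5.1 FPKM in the gene sum between 24 and 3 months, -4.05 FPKM came from these 3 transcripts and -1.05 FPKM from the coding isoforms.

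**Figure D2:**
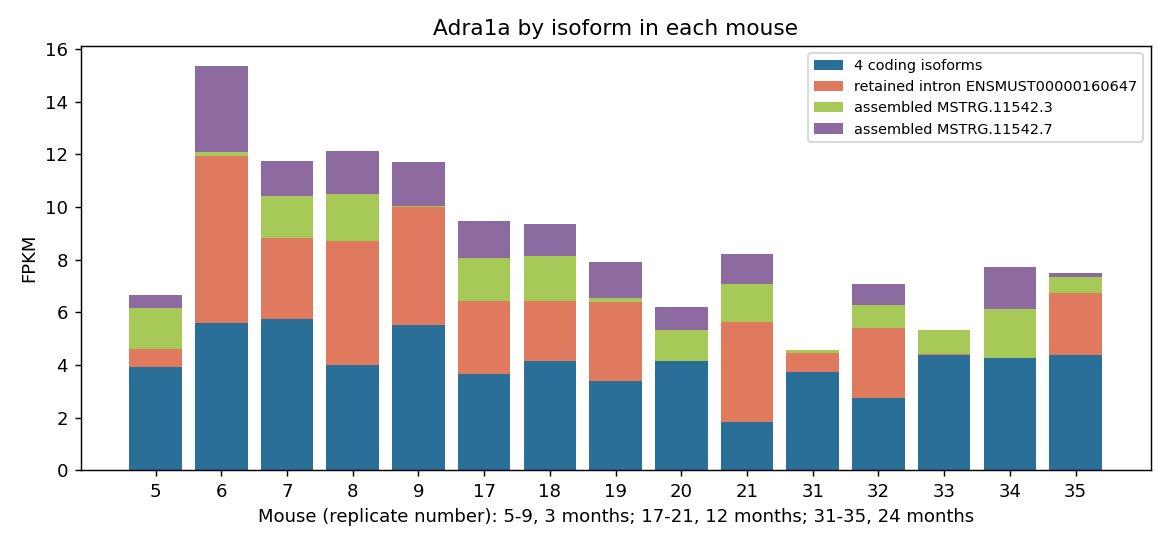
Stacked FPKM of Adra1a (vertical axis) in each of the 15 mice (horizontal axis, by replicate number), split into the 4 coding isoforms, the retained intron ENSMUST00000160647 and 2 assembled transcripts. The coding part lies between 1.83 and 5.76 FPKM in all mice, and the retained intron is at 0 in replicates 20 and 34.

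Of the single Adra1a transcripts, MSTRG.11542.7 had the next largest difference between 24 and 3 months. It is an assembled form of 3 exons and 29734 bases, so that a low FPKM stands for many reads, and it took a median of 40.2% of the bases aligned to the 7 transcripts and the intronic transcript MSTRG.11543.1. Its levels were 0.507, 3.25, 1.32, 1.66 and 1.68 FPKM at 3 months and 0, 0.793, 0, 1.56 and 0.141 FPKM at 24 months (difference -0.87 ± 0.34, limma p = 0.0287, adjusted p = 0.579, exact permutation p = 0.0556). MSTRG.11543.1, chosen after its values were seen, is a single-exon transcript of 10780 bases inside an Adra1a intron that the gene sum left out. It had means of 2.76 ± 0.625 FPKM at 3 months and 1.31 ± 0.953 at 24 months (limma p = 0.027, adjusted p = 0.578, exact permutation p = 0.0238). The 2 main coding transcripts had unadjusted limma p-values of 0.156 (ENSMUST00000159365) and 0.47 (ENSMUST00000054661). Over the 12 transcripts of the 6 genes, 5 had an unadjusted limma p under 0.05 between 24 and 3 months, against a background of 7.9% of transcripts (3 higher, background 5.43%, and 2 lower, background 2.47%), and 0 passed after adjustment, against a background of 0.0192%. The transcript of Adra1b was the 1 without overlap (background 2.13%). Between 12 and 3 months 1 transcript (Adra2b, background 7.46%) and between 24 and 12 months 1 transcript (MSTRG.11542.7, background 4.47%) had an unadjusted p under 0.05. With any 1 of the 10 mice left out, the count of 5 between 24 and 3 months was 1 to 3.

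The 17735 retained intron transcripts of all genes held 5.16% ± 0.348 of all FPKM at 3 months and 5.44% ± 0.17 at 24 months (SD, n = 5). Between 24 and 3 months 2.24% of those tested were lower and 5.1% were higher at an unadjusted limma p under 0.05, and their median difference was 0.02 on the log2 scale.

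The primer pair designed for Adra1a was matched to the GENCODE transcripts, because the pair decides which of these forms a PCR would count.
Forward primer: gcctcaagaccgacaagtcagac
Reverse primer: cactgcttactccgctgccttc
Both primers matched within exon 2, at bases 66638239 to 66638261 and 66638307 to 66638328 of chromosome 14, upstream of the point at which the coding and retained intron forms part. Each matched all 6 GENCODE transcripts of Adra1a that were searched, the retained intron included, with a product of 90 bases in each and no intron between the primers. A product from this pair therefore does not separate ENSMUST00000160647 from the coding isoforms.

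A circular RNA of Adra1a was also listed, the 1 circle of any of the 6 genes, and its estimated count was lower at 24 than at 3 months. It consists of exon 3 of ENSMUST00000054661 (66727446 to 66728000, 555 bases), the exon in which that isoform's coding sequence ends. The deposited estimated counts were 50, 104, 68.5, 60 and 64 at 3 months, 93.3, 35.4, 33.3, 34 and 70.5 at 12 months and 49.5, 37, 26, 51 and 48 at 24 months. Scaled to the circular total of each mouse, the circle had 8.82 ± 2.81, 6.1 ± 2.79 and 5.02 ± 0.982 CPM, the usual unit of such scaled counts (SD, n = 5). The 24-month values of 3.36 to 5.67 CPM did not overlap with the 3-month values of 6.32 to 13.5, and the mean was 0.569 times as high. The difference was -0.87 ± 0.21 on the log2 scale (edgeR quasi-likelihood test over 11924 circular RNAs, adjusted p = 0.0167, exact permutation p = 0.00794, the smallest possible), and the background was 13.3% of circular RNAs. DESeq2 gave an adjusted p of 0.00206. Between 12 and 3 months the difference was -0.57 ± 0.28 (edgeR adjusted p = 0.246, background 6.63%), and between 24 and 12 months it was -0.31 ± 0.27 (edgeR adjusted p = 0.582, background 0.738%).

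The circle was tested after its values were seen, and the sources used here do not say whether its estimated count holds reads of the linear exon. The estimated counts of the 11929 circular RNAs came to a median of 8.43e+06 a mouse. In the median mouse 89.8% of these estimated counts were not whole numbers. How far they stand for back-splice reads was not tested, so the fall may be one of exon 3 reads, linear or circular. Among the summed Adra1a transcripts only the coding isoforms hold exon 3. The retained intron isoform, MSTRG.11542.3 and MSTRG.11542.7 end before it. The deposited FPKM of the circle was 3.59 ± 1.08 at 3 months and 1.86 ± 0.374 at 24 months, below the medians of 5.51 and 4.28 FPKM of the linear coding isoforms, and across 4208 host genes the circular and linear FPKM had a Spearman rho of 0.63, a description across genes that are not independent. Over the 15 mice the circle and the Adra1a gene sum were correlated (Spearman rho = 0.69, permutation p = 0.00532, adjusted p = 0.0145 over 3 relations, Pearson r = 0.78, permutation p = 0.00068). The relation with the coding isoforms gave rho = 0.26 (permutation p = 0.355) and r = 0.37 (permutation p = 0.178), and that with the retained intron isoform gave rho = 0.66 (permutation p = 0.00969) and r = 0.71 (permutation p = 0.00265). Without the 2 mice farthest from the median of the circle, r with the gene sum was 0.64 (permutation p = 0.0197), r with the coding isoforms 0.22 (permutation p = 0.487) and r with the retained intron isoform 0.57 (permutation p = 0.0474). With each age centred, rho with the gene sum was 0.50 (permutation p = 0.0552, adjusted p = 0.166), and rho with the coding isoforms was -0.017 (permutation p = 0.96). Likewise centred, rho with the retained intron isoform was 0.45 (permutation p = 0.135, adjusted p = 0.202).

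**Figure D3:**
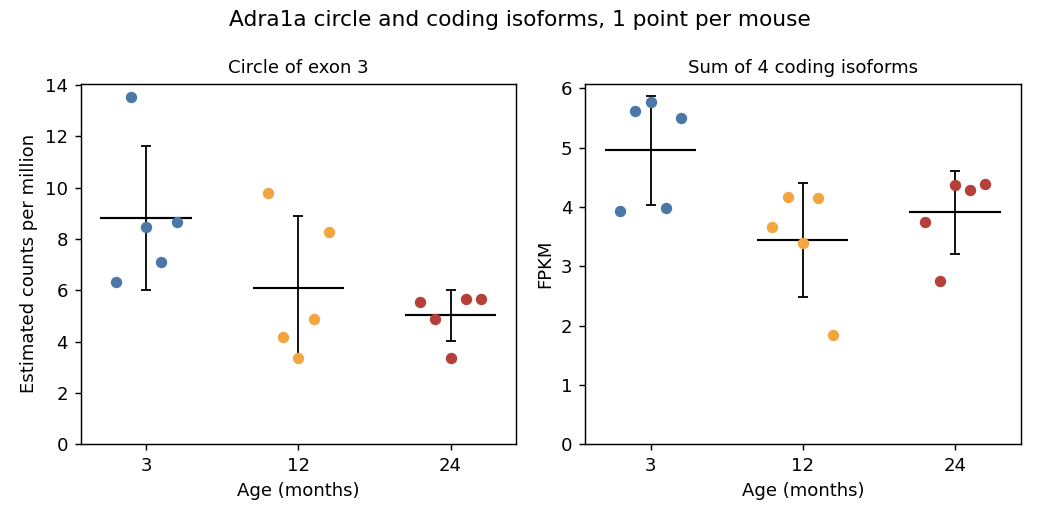
Left, estimated CPM of the Adra1a circle, and right, the FPKM sum of the 4 coding isoforms, at 3, 12 and 24 months (horizontal axes), with 1 point per mouse, the mean and the SD. The circle does not overlap between 3 and 24 months, whereas the coding isoforms do.

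The study set the retained intron isoform beside the lncRNA Gm43360 and the casein kinase gene Csnk1a1, and here the 7 Adra1a transcripts were compared with Gm43360 (ENSMUST00000197656) and Csnk1a1 (ENSMUST00000163205). The isoform and its partners had been picked by a predicted RNA binding energy and then by their rank correlation in these libraries, so that the p-values are not independent evidence. The Gm43360 transcript had 5.67 ± 1.76 FPKM at 3 months, 2.81 ± 1.07 at 12 months and 2.74 ± 1.73 at 24 months, and the Csnk1a1 transcript had 1.4 ± 0.914, 2.56 ± 2.28 and 4.85 ± 1.54 FPKM. This transcript was a small part of its gene. The gene sum of Csnk1a1 was 37.8 ± 5.97, 40.5 ± 5.09 and 44.9 ± 7.33 FPKM (exact permutation p = 0.127 between 24 and 3 months). Over the 10 mice of 3 and 24 months, the retained intron isoform and Gm43360 had a Spearman rho of 0.92 (permutation p = 0.0005, adjusted p = 0.007 over 14 pairs) and a Pearson r of 0.86 (permutation p = 0.00116). Without the 2 mice farthest from the Gm43360 median, r was 0.92 (exact permutation p = 0.00169). Over all 15 mice rho was 0.63 (permutation p = 0.0135, adjusted p = 0.189) and r was 0.67 (permutation p = 0.00588). With each age centred, rho was 0.84 over the 10 mice (permutation p = 0.00951, adjusted p = 0.133) and 0.46 over the 15 (permutation p = 0.0891). Replicate 20 at 12 months had 0 FPKM of the isoform beside 3.7 FPKM of Gm43360.

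With the Csnk1a1 transcript the retained intron isoform had a rho of -0.81 over the 10 mice (permutation p = 0.0073, adjusted p = 0.0511) and an r of -0.78 (permutation p = 0.00962), and with each age centred rho was -0.62 (permutation p = 0.0836). Without the 2 mice farthest from the Csnk1a1 median, r was -0.68 (exact permutation p = 0.06). Over all 15 mice rho was -0.37 (permutation p = 0.179) and r was -0.41 (permutation p = 0.134), and with each age centred rho was 0.076 (permutation p = 0.815). Of the 14 pairs, 1 passed after adjustment over the 10 mice and 0 did so over 15 mice with each age centred. The coding isoform ENSMUST00000054661 had a rho of -0.41 with Gm43360 (permutation p = 0.244) and ENSMUST00000159365 had 0.39 (permutation p = 0.264).

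**Figure D4:**
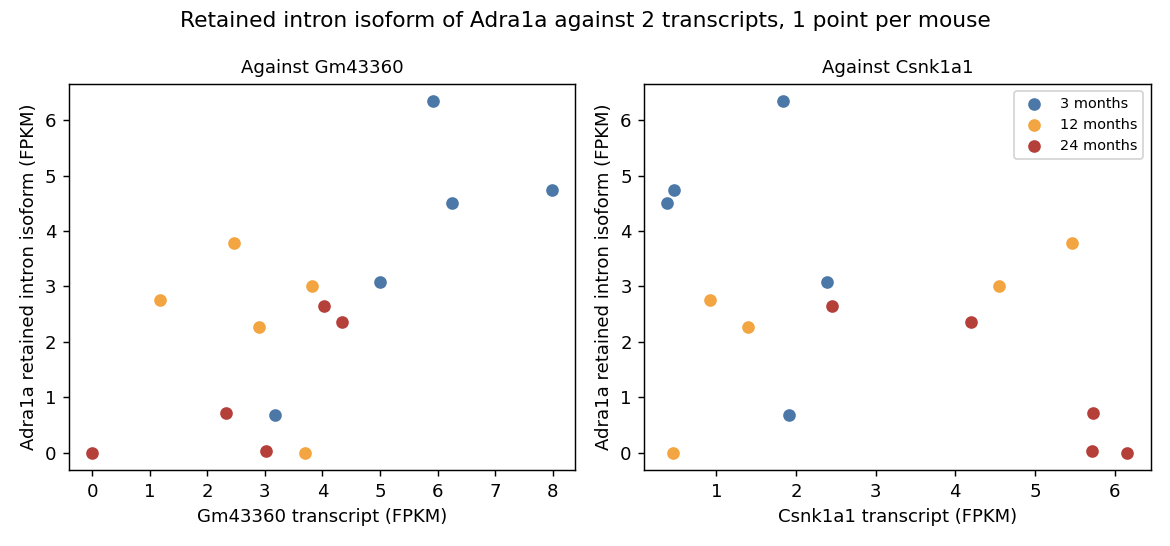
FPKM of the Adra1a retained intron isoform (vertical axes) against that of the Gm43360 transcript (left) and the Csnk1a1 transcript (right), with 1 point per mouse coloured by age. The mouse at 12 months with 0 FPKM of the isoform has 3.7 FPKM of Gm43360.

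Adra1b, a Gq-coupled receptor of blood vessels, was higher in all the older mice. It lies on chromosome 11 (43774606 to 43901210, minus strand) and had 1 listed transcript. Its levels were 0.126, 0.253, 0.199, 0.275 and 0.307 FPKM at 3 months. They were 0.363, 0.331, 0.324, 0.559 and 0.404 FPKM at 12 months and 0.502, 0.441, 0.652, 0.36 and 0.359 FPKM at 24 months. All 10 older mice were above all 5 mice at 3 months. Groups without overlap were found for 4.73% of genes between 24 and 3 months (3.82% higher) and for 4.11% between 12 and 3 months (3.45% higher), and Adra1b was the 1 gene of the 6 in both. The mean was 2-fold as high at 24 months (ratio 1.995) and 1.71-fold as high at 12 months as at 3 months. In log2(FPKM + 1), which understates the change of low genes, the differences were 0.25 ± 0.07 (limma p = 0.00466, adjusted p = 0.118) and 0.18 ± 0.06 (limma p = 0.0139, adjusted p = 0.219), and the exact permutation p was 0.00794 for each. Its median of 8.65 kilobases of aligned sequence a mouse was small beside the 467 kilobases of Adra1a.

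Adra1d, the alpha-1D receptor of smooth muscle, on chromosome 2 (131545850 to 131562283, minus strand), showed no difference beyond its spread. It ranged from 0.00715 to 0.286 FPKM at 3 months (median 0.104), from 0.0285 to 0.32 at 12 months (median 0.21) and from 0.0151 to 0.363 at 24 months (median 0.348). The difference between 24 and 3 months was 0.14 ± 0.09 (limma p = 0.158, exact permutation p = 0.167).

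The alpha-2 receptors were irregular. Adra2a, an inhibitory receptor found on sympathetic nerve endings, on chromosome 19 (the listed transcript spans 54045182 to 54048982, plus strand), had 0.246, 0.525, 0.129, 0.3 and 0.219 FPKM at 3 months. It had 0.116, 0.26, 0.197, 0.191 and 0 FPKM at 12 months and 0.211, 0.386, 0, 0.286 and 0 FPKM at 24 months. The ages overlapped, with a difference of -0.13 ± 0.11 between 24 and 3 months (exact permutation p = 0.325) and of -0.15 ± 0.09 between 12 and 3 months (exact permutation p = 0.135).

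Adra2b, the alpha-2B receptor, which is known from the proximal tubule, lies on chromosome 2 (127363208 to 127367221, plus strand) and was listed at 0 in 9 of 15 mice. All 5 mice at 3 months were at 0. The values were 0, 0, 10.2, 11.1 and 2.65 FPKM in replicates 17 to 21 at 12 months and 12.9, 3.62, 12.4, 0 and 0 FPKM in replicates 31 to 35 at 24 months. Against an age listed at 0, no fold is given. The limma p between 24 and 3 months was 0.0315 (adjusted p = 0.273) and between 12 and 3 months 0.0339 (adjusted p = 0.305), whereas the exact permutation test gave p = 0.167 for both. Another GENCODE transcript of Adra2b, ENSMUST00000071902, lies wholly inside the listed one and was not among the rows used here.

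Adrb1 lies on chromosome 19 (the listed transcript spans 56722372 to 56724862, plus strand). Its levels were 0, 0, 1.19, 0 and 0 FPKM in replicates 5 to 9 at 3 months. They were 1.88, 0, 0.218, 1.83 and 1.54 FPKM at 12 months and 2.43, 1.75, 1.42, 1.19 and 1.03 FPKM at 24 months. Only replicate 7 at 3 months reached the range of the 24-month mice. The difference between 24 and 3 months was 1.11 ± 0.25 in log2(FPKM + 1) (limma p = 0.00132, adjusted p = 0.0683, exact permutation p = 0.0159), and all 5 mice at 24 months were above the 3-month median of 0. Adrb1 passed the limma test when replicate 7 was left out (adjusted p = 0.0257), but that omission left only zeros, without spread, at 3 months. With any other mouse left out the limma adjusted p was 0.0967 to 0.141. Adrb1 also passed when genes with a mean under 0.1 FPKM were left out (adjusted p = 0.0439). Between 12 and 3 months the limma p was 0.0826.

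An exact 0 may be a failed estimate of the assembler rather than an absence of RNA, and Adra2a, Adra2b and Adrb1 are each a single exon. Of 1420 genes with 1 listed transcript of 1 exon and a mean of at least 0.5 FPKM, 45.5% were listed at 0 in 1 or more mice, and 19.8% in 4 or more. Of 2130 such genes with 2 or more exons, 6.24% were listed at 0 in 1 or more mice and 1.13% in 4 or more. These shares were counted after the zeros of Adra2b and Adrb1 had been seen. Whether the zeros of these receptors stand for absent RNA was not tested.

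**Figure D5:**
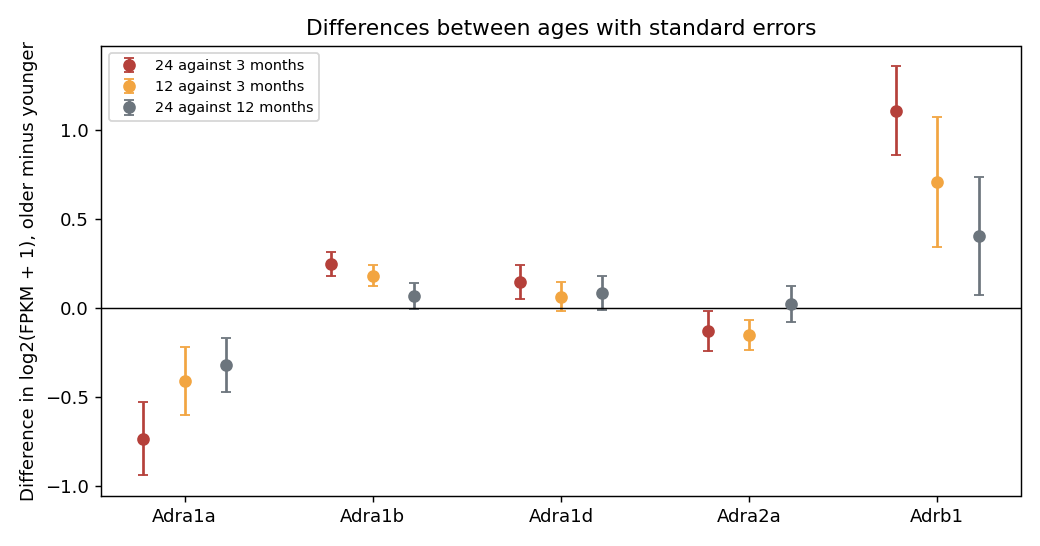
Difference in log2(FPKM + 1) between ages (vertical axis, older minus younger, with the SE from limma) for 5 of the receptor genes (horizontal axis). Adra2b is left out because all of its 3-month values are 0, and the differences of Adra1a lie below 0 in all 3 comparisons while those of Adra1b and Adrb1 lie above it.

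Cell type markers were read beside the receptors, since Adrb1 acts on juxtaglomerular cells and the alpha-1 receptors on vessels. Ren1, the renin gene, had 73 ± 61.9 FPKM at 3 months, 17 ± 8.56 at 12 months and 16.8 ± 5.12 at 24 months (limma p = 0.00539 between 24 and 3 months, adjusted p = 0.126, exact permutation p = 0.00794), opposite in direction to Adrb1. The 2 juxtaglomerular markers, Ren1 and Akr1b7, were both lower at 24 months at an unadjusted p under 0.05, and their sum was 25.4 to 181 FPKM at 3 months and 10.2 to 21.6 at 24 months. Of 8 smooth muscle and pericyte markers, 2 were higher (Des and Pdgfrb), and their sum was 33.6 to 48.9 FPKM at 3 months and 42.4 to 66.5 at 24 months. Of 5 endothelial markers, 2 were higher (Pecam1 and Egfl7), with sums of 47.9 to 71 and 65.3 to 84 FPKM. Of 6 immune markers, 4 were higher, with sums of 5.12 to 11.5 and 10.3 to 23.2 FPKM. Of 8 proximal tubule markers, 2 were lower, with sums of 1723 to 2244 and 1577 to 1991 FPKM. The sum of 6 sympathetic neuron markers was 0.384 to 1.1 FPKM at 3 months and 1.04 to 1.48 at 24 months, and 1 of them, Npy, was higher (0.532 ± 0.216 and 1.02 ± 0.233 FPKM, exact permutation p = 0.0238). None of these lists had a marker at 0 in all 15 mice, 0 of the 70 markers tested over 14 lists passed after adjustment in the limma test, 16 of them (11 higher, 5 lower) had an unadjusted p under 0.05 beside a background of 14.9% of genes (11.4% higher, 3.47% lower), and their part in the receptor values was not tested.

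The pathway lists held 66 names of other adrenergic receptors, catecholamine handling, G proteins, effectors, receptor kinases, arrestins, RGS proteins and dopamine receptors. They held older names of Grk2, Grk3 and Drd1 beside the present ones. The synthesis gene Th and the dopamine receptors Drd4 and Drd5 had no value. Of the names, 60 were measured and 59 were tested between 24 and 3 months. Of these 0 passed limma after adjustment, while 8 were higher and 4 lower at an unadjusted p under 0.05, or 20.3% beside a background of 14.9%. Their median difference was 0.05 on the log2 scale.

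Of the other adrenergic receptors, Adra2c ranged from 0 to 0.212 FPKM over the 15 mice and Adrb3 from 0 to 0.252, and neither had an unadjusted limma p under 0.05 in any pair of ages. In the handling of catecholamines, Slc22a3, an organic cation transporter that clears noradrenaline outside nerves, was at 0.257 ± 0.0909 FPKM at 3 months and 0.558 ± 0.124 at 24 months, without overlap (limma adjusted p = 0.0863, exact permutation p = 0.00794). Without replicate 32 at 24 months it passed the test (limma adjusted p = 0.049). Ddc, which makes dopamine in the proximal tubule, was at 36.3 ± 6.85 and 27.6 ± 4.27 FPKM (limma adjusted p = 0.28, exact permutation p = 0.0556). Among the breakdown enzymes, Maoa had 1.55 ± 0.344 and 2.13 ± 0.232 FPKM (exact permutation p = 0.0238) and Comtd1 1.78 ± 0.242 and 1.31 ± 0.315 FPKM (exact permutation p = 0.0317). The synthesis gene Dbh, which makes noradrenaline in nerve endings, was at most 0.018 FPKM in any mouse.

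Among the effectors, 1 of 10 G protein alpha subunits, 0 of 4 phospholipase C beta genes and 2 of 10 adenylyl cyclases differed between 24 and 3 months at an unadjusted limma p under 0.05, beside a background of 14.9% of genes. Gnaq, the alpha subunit through which alpha-1 receptors signal, was at 16.5 ± 0.737 FPKM at 3 months and 14.8 ± 0.794 at 24 months (difference -0.15 ± 0.06, limma adjusted p = 0.246, exact permutation p = 0.00794). Gnas, the Gs subunit of the beta receptors, had 52.8 ± 21 and 44.1 ± 16.1 FPKM (exact permutation p = 0.444). The adenylyl cyclases Adcy7 (1.47 ± 0.324 and 2.4 ± 0.369 FPKM, limma adjusted p = 0.111, exact permutation p = 0.00794) and Adcy3 (0.826 ± 0.199 and 1.27 ± 0.274 FPKM, exact permutation p = 0.0317) were higher.

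Of 7 receptor kinases and arrestins, which switch off active receptors, Grk5 was lower at 24 months (3.86 ± 0.379 and 2.72 ± 0.666 FPKM, limma adjusted p = 0.201, exact permutation p = 0.00794). Grk3 (3.18 ± 0.624 and 4.09 ± 0.598 FPKM, exact permutation p = 0.0159) and Grk6 (3.15 ± 0.21 and 3.77 ± 0.44 FPKM, exact permutation p = 0.0159) were higher. Of 7 RGS proteins, which shorten G protein signals, Rgs10 (0.782 ± 0.2 and 1.33 ± 0.311 FPKM, exact permutation p = 0.0159) and Rgs16 (0.11 ± 0.0871 and 0.272 ± 0.0871 FPKM, exact permutation p = 0.0397) were higher. None of the 3 dopamine receptors measured had an unadjusted limma p under 0.05 in any pair of ages, and the highest of them, Drd3, had a mean of 0.0763 FPKM. The highest means among the adenylyl cyclases, phospholipases, arrestins with receptor kinases, and RGS proteins were those of Adcy6 (14.2 FPKM), Plcb1 (13.3), the arrestin Arrb1 (12.4) and Rgs2 (7.74).

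Between 12 and 3 months 0 of 58 pathway genes passed limma after adjustment, and 9 were higher and 3 lower at an unadjusted p under 0.05 (20.7% beside a background of 14.3%). Gnaq, Grk3, Grk5, Grk6 and Rgs16 differed in the same direction as at 24 months. Gnai2, a Gi subunit, had 34.3 ± 3.71 FPKM at 3 months and 41.7 ± 3.22 at 12 months (exact permutation p = 0.0238). Maob, a monoamine oxidase, had 1.99 ± 0.276 and 1.21 ± 0.603 FPKM (exact permutation p = 0.0556), and Arrb2, an arrestin, had 5.57 ± 1.26 and 7.37 ± 1.14 FPKM (exact permutation p = 0.0397). The others, all higher at 12 months, were Plcb2 (0.542 ± 0.23 and 0.867 ± 0.209 FPKM), Adcy10 (0.214 ± 0.199 and 0.484 ± 0.138 FPKM), Rgs4 (0.481 ± 0.279 and 0.901 ± 0.171 FPKM) and Rgs14 (0.189 ± 0.0559 and 0.322 ± 0.0844 FPKM).

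Between 24 and 12 months 0 of 60 pathway genes passed after adjustment, and 3 were higher and 4 lower at an unadjusted limma p under 0.05 (11.7% beside a background of 6.43%). Slc18a1, a vesicular monoamine transporter, had 44.3 ± 2.22 FPKM at 12 months and 35.7 ± 1.2 at 24 months, without overlap (limma adjusted p = 0.581, exact permutation p = 0.00794). Ddc and Gnai2 were also lower at 24 than at 12 months, with exact permutation p-values of 0.0159 and 0.0397. Slc22a3, Maob and Plcb4 were higher, with exact permutation p-values of 0.0159, 0.0238 and 0.0556.

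The genes whose level went most nearly with each receptor over the 15 mice were sought among 13446 genes with a mean of at least 1 FPKM, by Pearson r of log2(FPKM + 1), as a description over libraries that also share age. For Adra1a they were Ints2 (r = 0.92) and Fam91a1 (r = 0.88), for Adra1b Gm45148 (r = 0.92) and Lbh (r = 0.90), and for Adra1d Maml2 (r = 0.84) and Hecw2 (r = 0.81). For Adra2a they were BC046401 (r = 0.83) and Fermt1 (r = 0.79), and for Adra2b Whamm (r = 0.87) and Mgmt (r = 0.86), and Nol10 (r = 0.87) was among those for Adrb1.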

How the data were processed

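Kidney RNA of 15 mice was sequenced. The processing notes name TopHat2 and StringTie, whereas the methods name Bowtie2 and Hisat2 for mapping and StringTie for transcript levels. The authors deposited FPKM and mean coverage (signal) per transcript and, for circular RNAs, estimated counts and FPKM. The labels describe removal of ribosomal RNA, whereas the methods describe oligo(dT) selection and pooled RNA. FPKM values of transcripts with class code =, c, j or o were summed per gene name. Genes above 0 in any mouse compared were tested on log2(FPKM + 1) with limma 3.58.1 (R 4.3.3, trended prior, mice of both ages only, Benjamini-Hochberg adjustment over all genes), and single values by exact permutation (252 assignments) or 100000 resamples. Estimated counts were rounded and tested with edgeR 4.0.16 and DESeq2 1.42.0 over circles above 0 in at least 5 mice. Scripts were tested on simulated data. Transcripts were matched to GENCODE M21, in which 96.2% of the annotated transcripts found had identical coordinates. Depth was the median ratio of coverage to FPKM. All members, their transcripts, and list genes with an unadjusted p under 0.05 or the highest level were named. Members and lists were chosen with earlier results of these data known, and groups came from the labelled age. Pseudocounts, filters, scalings, TPM and omitted mice were tried as alternatives. Values of a few genes that the naming rule covers are not reported here.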

Additional observations from a re-analysis of the deposited data

Results flagged for a closer look

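Among 47 groups of 5 mice with any spread (6 genes, 7 Adra1a transcripts, the circle, the coding sum and the retained intron share, at 3 ages), 4 held 1 mouse whose gap to the others, divided by the range of the group, exceeded 0.71. For normal values chance alone marks about 1 group in 20. In each of the 4, 1 mouse was above 0 and the other 4 were listed at 0. The ratio is then 1 whatever the value, so that the chance rate does not apply. Adrb1 was at 1.19 FPKM in replicate 7 at 3 months. The coding Adra1a isoform ENSMUST00000161339 was at 2.65 FPKM in replicate 8 at 3 months, at 2.49 FPKM in replicate 19 at 12 months and at 1.03 FPKM in replicate 31 at 24 months. In replicates 8 and 19 the coding isoform ENSMUST00000054661, was listed at 0.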

How the results depend on the processing

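Adra1b, Adra1d and Adra2a rested on medians of 8.65, 2.72 and 5.72 aligned kilobases a mouse against 467 for Adra1a, and the zeros of Adra2b and Adrb1 limit their tests. No paired analysis was possible because the ages share no replicate numbers. The 516 alternative values of single genes and transcripts kept their direction and their side of the threshold in 498 cases, and 2 more (Adrb1) passed the threshold. Between 24 and 3 months 1 gene (Adrb1) passed instead of 0 with a minimum mean of 0.1 FPKM, and the count was 0 to 1 with each mouse left out, 1 without 3-month replicate 7. With each mouse left out, the count over the 3 ages was 0 to 1 (Adra1a, without 3-month replicate 5), the unadjusted counts were 1 to 3 between 12 and 3 months (2 with all mice, and 1 without 3-month replicates 6, 8 or 9 or 12-month replicates 20 or 21) and 0 to 1 between 24 and 12 months (1 without replicates 20, 34 or 35), that of the transcripts was 1 to 3 and those of the pathway genes were 0 to 1 after adjustment (Slc22a3, without 24-month replicate 32, and with an adjusted p of 0.0258 in a fit of all 15 mice) and 6 to 12 before (6 without replicate 34 and 7 without replicate 35). Values near 0 turned their sign: Adra2a between 24 and 12 months (-0.039 with a pseudocount of 0.1, and -0.041 to 0.077 with a mouse left out), Adra2b between 24 and 12 months (-0.30 to 0.65 with a mouse left out), ENSMUST00000054661 (-0.030 to 0.51), ENSMUST00000161339 (-0.37 to 0.20) and MSTRG.11542.3 (0.13 with a pseudocount of 0.1, 0.04 in TPM and -0.26 to 0.12 with a mouse left out), and the cause was not tested. In relations chosen after seeing the data, the retained intron isoform and Gm43360 had rho = 0.46 with each age centred over 15 mice (permutation p = 0.0891). The isoform and the Csnk1a1 transcript, chosen likewise, had rho = -0.37 over all 15 mice, -0.62 with each age centred over 10 mice and 0.076 over 15. The circle kept its call between 24 and 3 months in all 13 alternatives, with edgeR and DESeq2 adjusted p-values from 0.00206 to 0.044. The retained intron share stayed short of the threshold in all 11 alternatives (exact permutation p from 0.0873 to 0.333), as did the coding sum in all 10 (exact permutation p from 0.0556 to 0.198).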
